A study of Mus musculus with 4 samples.

Results

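The AP-1 transcription factors measured here are the products of 9 genes: Fos, Fosb, Fosl1, Fosl2, Jun, Junb, Jund, Atf3 and Batf. They were found by symbol among the array features that carry exactly 1 gene symbol in the platform annotation. Such a feature was present for 8 of the 9, with 1 feature for each, out of 30142 named genes. Junb was left without a value because its only feature is also assigned to the peroxidase gene Prdx2, whose RNA cannot be told apart from that of Junb on it. Of the 8 measured members, 7 had a mean above the expression floor of 5.82 on the log2 scale, which 18084 genes passed, and were tested. Fosl1 lay below it.

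AP-1 is a dimer of basic leucine zipper (bZIP) proteins that binds DNA at the TRE, a short palindrome, or at the related cAMP response element (CRE). FOS proteins cannot form stable homodimers and pair with a JUN protein, whereas JUN proteins also pair with each other, and ATF3 and BATF join the same network as partners that often repress or redirect it. Fos, Fosb, Jun, Junb and Atf3 are immediate early genes, transcribed briefly and within minutes of growth factor, stress or neural signals through MAP kinases, SRF and CREB. Jund and Fosl2 are in general less transient. In lung, AP-1 is known for its role in the response of epithelium and macrophages to oxidants and inflammatory signals.

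Whole lungs came from male C57BL mice, an inbred strain with no transgene or deletion named in the labels. Exposure started at 10 weeks of age. Control mice breathed clean air, and smoke-exposed mice breathed mainstream cigarette smoke, drawn through the burning cigarette, for 1 h per day on 5 days per week. The 2-week control pool and the 2-week smoke pool each held 5 mice of 12 weeks of age, the 4-week control pool held 5 mice of 14 weeks, and the 4-week smoke pool held 4 mice of 14 weeks. Each pool was hybridised to 1 array, so each group has n = 1 and the spread between animals is not seen. The sources used here do not give the interval between the last exposure and removal of the lungs.

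Signals are the deposited RMA intensities on a linear scale, with array medians of 58.8 to 61.7, and differences are on the log2 scale. All 263824 values had a log2 with 6 decimals (within 2e-08), as against 3.97% of their natural logs, so the linear values had been made as powers of 2. Between 541 and 581 features per array exceeded 65535, the top of a 16-bit scan. The sources used here give no transformation behind such values, and one could have stretched the fold sizes. Precision is limited by the number of arrays. RMA makes the arrays' distributions alike, so a difference is relative to the other genes. Markers of alveolar type 2, type 1 and club cells were measured on every array, and 0 of 6, 0 of 5 and 0 of 3 passed limma for smoke (1, 2 and 0 at an unadjusted p under 0.05, which 11.6% of all genes reached).

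The promoters of 5 members are shown because these members span the range of the smoke differences, from Fosb and Fos, with the largest, to Batf, which was higher in the smoke pools. The sequences are the 250 bases before the annotated start in RefSeq (GRCm38.p6), 5′ to 3′ on the gene's strand. Capitals mark matches to TGACG, the core of the CRE, to TGACNTCA, a full-length site of CRE type, or to TATAAA. TGACNTCA is a palindrome only with G at the free position N.
Fos, chr12:85473640-85473889, plus strand: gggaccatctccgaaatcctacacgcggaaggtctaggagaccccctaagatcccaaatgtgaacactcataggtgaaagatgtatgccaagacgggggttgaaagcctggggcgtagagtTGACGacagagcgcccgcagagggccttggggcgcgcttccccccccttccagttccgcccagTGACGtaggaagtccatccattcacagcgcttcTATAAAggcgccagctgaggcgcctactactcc
Fosb, chr7:19310046-19310295, minus strand: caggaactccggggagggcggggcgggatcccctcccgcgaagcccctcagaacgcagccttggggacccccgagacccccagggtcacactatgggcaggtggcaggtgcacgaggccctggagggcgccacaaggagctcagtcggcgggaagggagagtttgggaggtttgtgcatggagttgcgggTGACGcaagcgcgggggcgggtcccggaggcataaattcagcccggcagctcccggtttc
Jun, chr4:95052223-95052472, minus strand: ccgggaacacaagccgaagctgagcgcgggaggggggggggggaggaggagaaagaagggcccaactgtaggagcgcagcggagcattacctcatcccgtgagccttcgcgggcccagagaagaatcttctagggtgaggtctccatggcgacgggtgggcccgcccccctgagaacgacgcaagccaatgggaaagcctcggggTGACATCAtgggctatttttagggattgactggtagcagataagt
Atf3, chr1:191183334-191183583, minus strand: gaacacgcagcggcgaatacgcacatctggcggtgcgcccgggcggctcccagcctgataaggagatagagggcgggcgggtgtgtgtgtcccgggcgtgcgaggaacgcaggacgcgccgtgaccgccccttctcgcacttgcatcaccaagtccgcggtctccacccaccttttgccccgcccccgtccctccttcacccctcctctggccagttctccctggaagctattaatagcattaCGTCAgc
Batf, chr12:85686470-85686719, plus strand: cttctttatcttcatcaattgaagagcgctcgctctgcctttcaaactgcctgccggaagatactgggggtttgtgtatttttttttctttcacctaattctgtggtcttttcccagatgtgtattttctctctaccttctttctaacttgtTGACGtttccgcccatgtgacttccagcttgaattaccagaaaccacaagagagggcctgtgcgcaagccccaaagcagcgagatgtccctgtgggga

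The Fos window held TGACG at -129 and -66 from the start site and TATAAA at -33. Fosb held TGACG at -60, Atf3 at -7 on the opposite strand and Batf at -98. Jun held TGACATCA at -45, its known AP-1 binding element. TGACG was searched on both strands and was found in 17.8% of 32851 such windows of all genes, TGACNTCA on both strands in 7.49% and TATAAA on the gene's strand in 7.59%. A TGACNTCA match with G at the free position would also count as TGACG. The TRE, TGANTCA, was found in 0 of the 8 member windows (6.75% of all windows), and so was the CArG box bound by SRF (1.47%). Each was searched on both strands. Bases further upstream than 250 were not searched, so sites there would not be seen. The windows of Fosl2 and Jund held 0 of the motifs searched, and that of Junb held TGACG at -106. No promoter entry was matched for Fosl1.

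Fos, the founding member, whose protein pairs with a JUN protein, was far lower in both smoke pools. Its signal was 7319 in the 2-week control and 1045 in the 2-week smoke pool, and 4486 in the 4-week control and 1034 in the 4-week smoke pool. The smoke pools did not overlap with the controls and differed from each other by 1.01-fold, while the controls differed by 1.63-fold. Fos was thus 7.01-fold lower after 2 weeks (log2 difference -2.81) and 4.34-fold lower after 4 weeks (-2.12). The lower control pool was 4.29-fold above the higher smoke pool.

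Fosb, a close relative of Fos known for its long-lived splice form in brain, had the largest difference of the family at 2 weeks. Its signal was 877 in the 2-week control, 95.1 in the 2-week smoke, 281 in the 4-week control and 127 in the 4-week smoke pool. Both smoke pools were below both controls, but the controls lay far apart. Fosb was 9.22-fold lower at 2 weeks (-3.20) and 2.22-fold lower at 4 weeks (-1.15), and the 4-week control was itself 3.12-fold below the 2-week control.

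Fosl2 encodes FRA-2, a FOS protein without the strong activation domain of FOS. Its signals were 1026 and 749 in the 2-week control and smoke pools, and 1295 and 855 in the 4-week control and smoke pools. The groups did not overlap. The differences were 1.37-fold lower at 2 weeks (-0.45) and 1.51-fold lower at 4 weeks (-0.60), small beside those of Fos. Fosl1, which encodes FRA-1, had signals of 34.9, 34.3, 34.3 and 35.4 in the 2-week control, 2-week smoke, 4-week control and 4-week smoke pools. Its groups overlapped and all values lay below the floor.

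**Figure D1:**
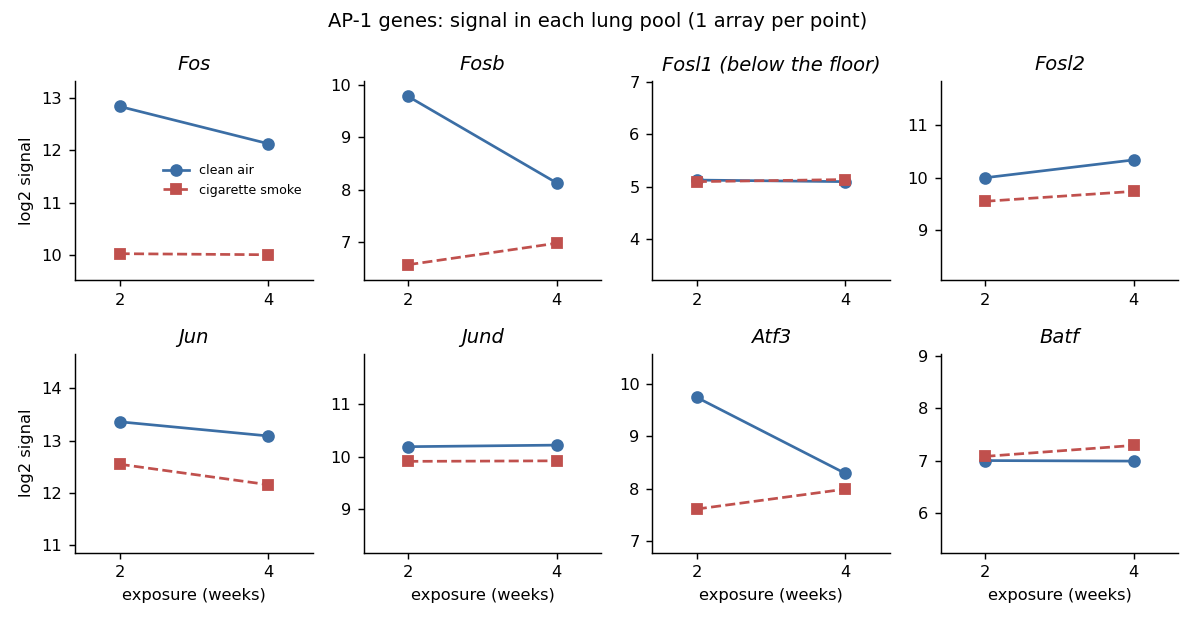
Log2 signal (y axis) of the 8 measured AP-1 genes in the clean air (blue circles) and cigarette smoke pools (red squares) at 2 and 4 weeks (x axis); each point is 1 array of 1 pool, lines only join pools of the same treatment, and every panel spans the same number of log2 units. Fos stood at 12.84 and 12.13 in the controls and at 10.03 and 10.01 under smoke, whereas the 4 values of Fosl1 lay between 5.10 and 5.14.

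Jun, the most widely used partner and an activator of its own promoter, was lower by less than Fos but by a like amount at both durations. Its signal was 10523 in the 2-week control, 5992 in the 2-week smoke, 8747 in the 4-week control and 4588 in the 4-week smoke pool. The groups did not overlap, and the lower control was 1.46-fold above the higher smoke pool. Jun was 1.76-fold lower at 2 weeks (-0.81) and 1.91-fold lower at 4 weeks (-0.93). Jund, which is often found in resting cells, had signals of 1171 and 962 at 2 weeks and of 1192 and 968 at 4 weeks, control first. Its groups did not overlap either, at 1.22-fold and 1.23-fold lower. The controls of Jund were 1.02-fold and its smoke pools 1.01-fold apart.

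Atf3, a stress-induced factor that often represses its targets, differed between the durations. Its signal was 857 in the 2-week control, 195 in the 2-week smoke, 313 in the 4-week control and 255 in the 4-week smoke pool. Only the 2-week control stood high, and the other pools lay within a narrower range with smoke below control. Atf3 was 4.39-fold lower at 2 weeks (-2.14) and 1.23-fold lower at 4 weeks (-0.30), while the 4-week control was 2.74-fold below the 2-week control. Batf, a partner of JUN proteins known from T cells, B cells and dendritic cells, had signals of 128 and 135 at 2 weeks and of 127 and 157 at 4 weeks, control first. Both smoke pools were above both controls, by 1.06-fold (0.08) and 1.23-fold (0.30).

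Read as a family, 4 of the 7 tested members, Fos, Fosb, Jun and Atf3, were at least 1.5-fold lower after 2 weeks of smoke, as against 1.22% of all 18084 genes. After 4 weeks 4 members were lower by as much, Fos, Fosb, Fosl2 and Jun, against 1.5% of all genes. None was that much higher at either duration, as against 1.82% and 2.53% of all genes. Fos, Fosb and Jun were so at both durations (0.337% of all genes). In 6 of the 7 both smoke pools lay below both control pools, as in 16.8% of all genes, and in the other, Batf, both lay above (15.7%). For Fos and Fosb the lower control was at least 1.5-fold above the higher smoke pool (0.216% of all genes). The median difference of the 7 members was -0.81 at 2 weeks and -0.60 at 4 weeks, beside 0.01 and -0.02 for all genes.

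**Figure D2:**
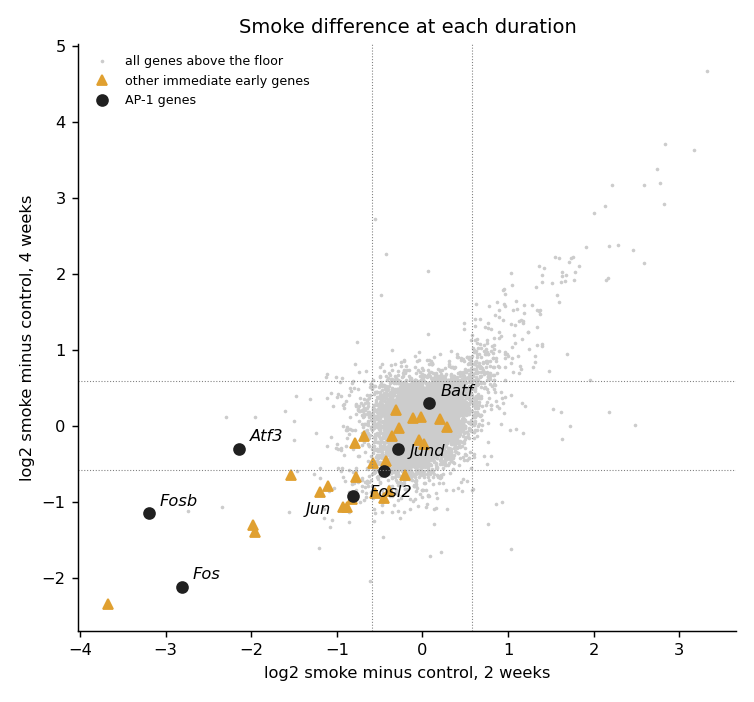
Log2 smoke minus control at 2 weeks (x axis) and at 4 weeks (y axis) for the 18084 genes above the floor (grey), 27 other immediate early genes (orange triangles) and the 7 tested AP-1 genes (black, named); dotted lines mark 1.5-fold. Fos (-2.81, -2.12) and Fosb (-3.20, -1.15) lie at the far lower left, and Atf3 (-2.14, -0.30) is displaced along the 2-week axis alone.

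The unexposed pools set the background for these differences. From the 2-week to the 4-week control, Fos (-0.71), Fosb (-1.64) and Atf3 (-1.45) were at least 1.5-fold lower, which 2.25% of all genes were, and 0 members were that much higher (1.85% of all genes). Jun (-0.27), Fosl2 (0.34), Jund (0.02) and Batf (0.00) differed by less. This difference and the 2-week smoke difference share the 2-week control array, so a high value on that array lowers both. The controls differ in age and array as well as in exposure time, and these cannot be told apart. Between the smoke pools, 0 of the 7 members differed by 1.5-fold (3.14% of all genes did, in either direction), with values from -0.39 for Jun to 0.41 for Fosb. The change of the smoke difference from 2 to 4 weeks was 2.05 for Fosb, 1.84 for Atf3 and 0.69 for Fos, while the other 4 lay between -0.14 and 0.22. It has no replicate and was not tested.

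**Figure D3:**
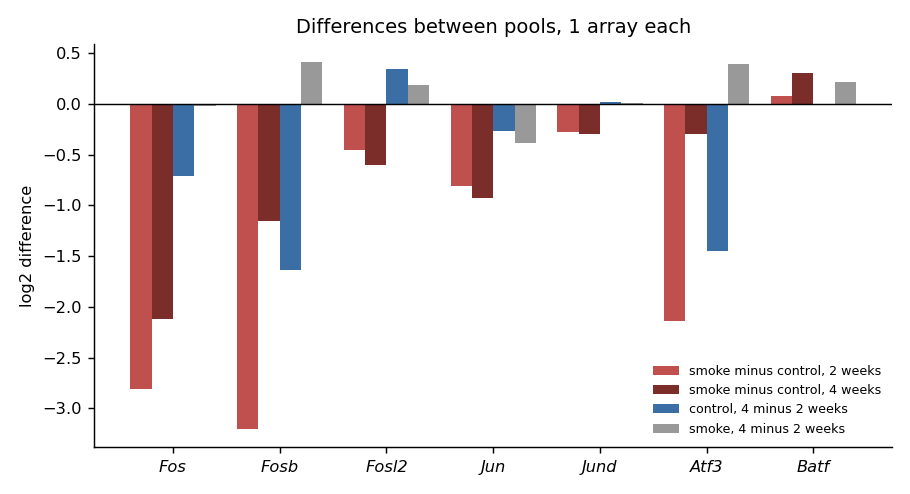
Log2 differences (y axis) between single pools for the 7 tested AP-1 genes: smoke minus control at 2 weeks (light red) and 4 weeks (dark red), the 4-week minus the 2-week control (blue) and the 4-week minus the 2-week smoke pool (grey); each bar is a difference of 2 arrays and has no error. For Atf3 the blue bar (-1.45) is larger than the 4-week smoke bar (-0.30), and for Jund both the blue (0.02) and the grey bar (0.01) are near 0.

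Smoke was tested over both durations with limma, with 2 smoke and 2 control pools and a term for duration. The words fell and rose are used for genes with an adjusted p of at most 0.05 over all 18084 genes. In this fit the error of a gene is how much its smoke difference changed between durations, moderated across genes. Fos fell by 2.46 ± 0.170 (log2, SE), or 5.51-fold, with a 95% interval of -2.87 to -2.05 (adjusted p = 0.00286). Jun fell by 0.87 ± 0.103, or 1.83-fold, with an interval of -1.12 to -0.62 (adjusted p = 0.0184). These 2 of 7 members stand against 0.315% of all genes that fell, and 0 members rose against 1.15%.

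The other members did not pass limma at this threshold. Fosb was at -2.18 ± 0.419, a value close to that of Fos with a wider error (adjusted p = 0.0812). Atf3 was at -1.22 ± 0.378 (adjusted p = 0.264), and its interval ran from -2.13 to -0.31. Fosl2 was at -0.53 ± 0.104 (adjusted p = 0.0895) and Jund at -0.29 ± 0.101 (adjusted p = 0.323). Batf was at 0.19 ± 0.110, with an interval of -0.07 to 0.45 (adjusted p = 0.621). In the order from Fos through Fosb, Atf3, Jun, Fosl2 and Jund to Batf, each member's 95% interval overlapped with that of its neighbour, while the interval of Fos did not overlap with that of Jun, Fosl2, Jund or Batf.

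**Figure D4:**
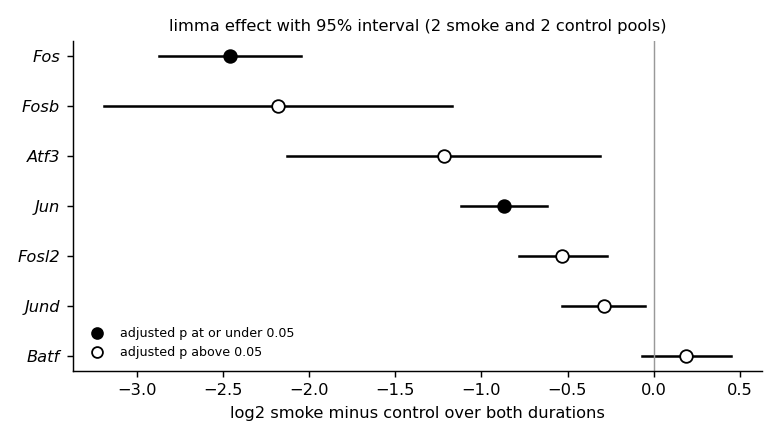
Log2 smoke minus control over both durations (x axis) from limma for the 7 tested AP-1 genes, with 95% intervals as lines; filled points have an adjusted p at or under 0.05. The interval of Fos (-2.87 to -2.05) is narrower than that of Fosb (-3.19 to -1.17), and Batf is the single member whose interval includes 0.

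Both calls depended on the model. Without the duration term the adjusted p from limma was 0.0772 for Fos and 0.311 for Jun, and 0 of all 18084 genes passed. In fits of 3 pools, which have no duration term, the effect of Fos ran from -2.82 to -2.11. That of Jun ran from -1.06 to -0.68. Fosb was at -3.00 and Atf3 at -1.94 without the 4-week control pool, and at -1.36 and -0.49 without the 2-week control pool. Each of these fits has a single pool in 1 arm, which is assumed to vary like the pair in the other, and changes the model along with the pools, so the effect of a pool is not separated from that of the duration term. After cyclic loess the Jun call was lost (-0.84, adjusted p = 0.0688). With only the 12579 protein-coding genes fitted, Fosb, Fosl2 and Atf3 passed beside Fos and Jun. In that fit 882 genes passed in all, as against 265 of 18084 in the planned fit.

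Over the 4 arrays, the genes outside the family whose mean-centred log2 values lay nearest to those of Fos were Egr1, Nr4a1, Ccn1, Cyp26b1 and Apold1, at Euclidean distances of 0.83, 0.83, 0.89, 1.01 and 1.13 log2 units. Fosb lay at 0.78, Atf3 at 1.38, Jun at 1.64, Fosl2 at 2.08, Jund at 2.23 and Batf at 2.70. Egr1, an immediate early zinc-finger factor, had signals of 2009 and 511 at 2 weeks and 1155 and 465 at 4 weeks, control first. Like Fos, it was high in both controls, highest at 2 weeks, and nearly level in the smoke pools. With 4 arrays, this likeness is a description of these pools.

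Genes of other lists were then set beside the family, and these lists were written with earlier results of these data known. Of 27 other immediate early genes, 9 fell (0.315% of all genes did), 0 rose (1.15%) and 18 did not pass limma. Of the 27, 21 were lower at both durations (29.3% of all genes were). At an unadjusted p under 0.05, 18 of the 27 passed, where 11.6% of all genes did. The list's median differences were -0.55 at 2 weeks and -0.65 at 4 weeks. Among the 9 that fell, the 5 with the largest effects were the nuclear receptor Nr4a1 (-3.01 ± 0.281), the matricellular protein gene Ccn1 (-1.68 ± 0.150), Egr1 (-1.65 ± 0.165), Ier2 (-1.03 ± 0.120) and the antiproliferative gene Btg2 (adjusted p = 0.012). After cyclic loess, 2 of the 9 calls were kept, those of Ccn1 and Btg2. Nr4a1 (-1.56), Egr1 (-0.80) and Ccn1 (-1.06) were also below their 2-week level in the 4-week control by at least 1.5-fold, as 3 genes of the list were in all.

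Related bZIP factors outside the family differed little. Of 16 tested, among them Atf2, a partner of JUN, Jdp2, a repressor of AP-1, and Batf3, a relative of Batf, 0 passed limma. The lowest value was that of Cebpd, an acute phase regulator named here after its value was seen (-0.71 ± 0.118, adjusted p = 0.0512). Their effects ran from -0.71 to 0.17, with medians of -0.11 and -0.17 at the 2 durations. Of 18 upstream kinases and SRF-type factors, 0 passed either, with medians of 0.02 and -0.17. The lowest effect in that list was that of Srf, which binds the CArG boxes of Fos and Egr1 (-0.54 ± 0.102, adjusted p = 0.0775), also named after its value was seen. At an unadjusted p under 0.05, 4 of the 16 and 3 of the 18 passed, where 11.6% of all genes did. Mapk8, Mapk9 and Mapk10, kinases that phosphorylate JUN, were at -0.29 ± 0.111, -0.25 ± 0.114 and -0.28 ± 0.103. Their adjusted p from limma was 0.383, 0.477 and 0.364, and the median effect of their list was -0.08.

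Textbook targets of AP-1 went in both directions. Of 21 listed, 11 were tested, and 3 rose (1.15% of all genes did), 1 fell (0.315%) and 7 did not pass limma. At an unadjusted p under 0.05, 8 of the 11 passed, where 11.6% of all genes did. At both durations 6 of the 11 were lower and 4 were higher. The protease inhibitor Timp1 rose by 0.74 ± 0.101 (adjusted p = 0.0287), the hyaluronan receptor Cd44 by 0.72 ± 0.104 (adjusted p = 0.0321) and the chemokine Ccl2 by 0.81 ± 0.133 (adjusted p = 0.0498). Ptgs2, the inducible cyclooxygenase and itself an immediate early gene, fell by 0.77 ± 0.123 (adjusted p = 0.0436). After cyclic loess 0 of these 4 passed, with adjusted p from 0.0722 to 0.127. The list's medians were -0.09 and -0.22.

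**Figure D5:**
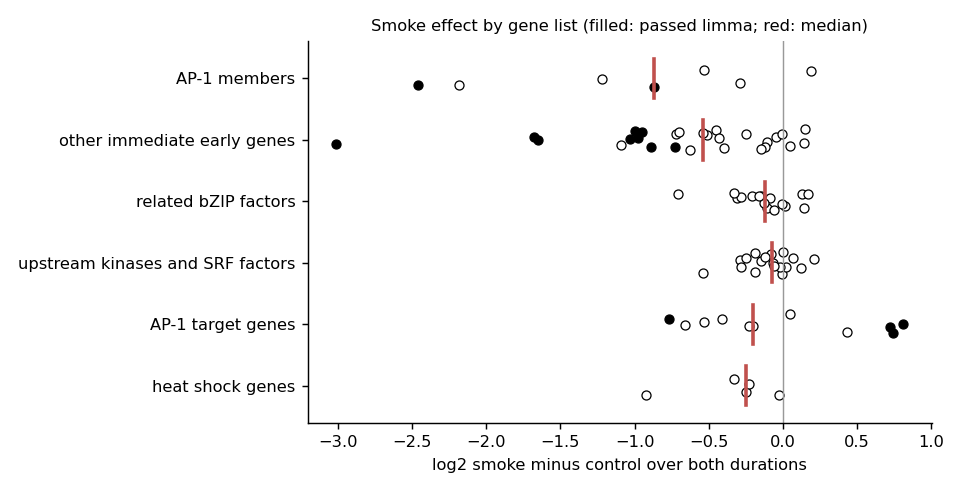
Log2 smoke minus control over both durations (x axis) for each tested gene of 6 lists, placed with random vertical scatter; filled points passed limma and red bars are list medians. The AP-1 median is -0.87 and that of the other immediate early genes -0.54, while those of related bZIP factors (-0.12), upstream kinases and SRF factors (-0.08), targets (-0.20) and heat shock genes (-0.25) lie nearer to 0.

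Markers of cell types moved with smoke as well. The summed signal of 7 alveolar macrophage markers was 6582 and 7764 in the control pools and 10862 and 16540 in the smoke pools, and 2 of 7 rose. Those were Marco (2.70 ± 0.214) and Itgax (1.93 ± 0.134), while the other 5 did not pass. Of these, Pparg (0.38 ± 0.100), Fabp4 (0.30 ± 0.147) and Car4 (0.26 ± 0.100) were above 0. Siglecf (-0.00 ± 0.113) and Krt79 (-0.32 ± 0.101) were not. These 5 were named after their values were seen. In all, 5 of the 7 markers were higher at both durations and 5 had an unadjusted p under 0.05. Car4 alone made up 3459 and 3977 of the sum in the controls and 4156 and 4763 under smoke. The sum of 6 monocyte and interstitial macrophage markers was 49979 and 88292 in the controls and 59987 and 76915 under smoke. Most of it was Ly6c2, named after its value was seen, with 46829 and 84353 in the controls and 55611 and 70893 under smoke (-0.00 ± 0.141). The sum is thus mainly that of 1 gene, and the median effect of the 6 markers was 0.56. The complement genes C1qa (0.73 ± 0.101) and C1qb (1.21 ± 0.112) rose, and 5 of the 6 markers had an unadjusted p under 0.05. Of 6 neutrophil markers 0 passed limma (1 at an unadjusted p under 0.05), but 5 were at least 1.5-fold lower after 4 weeks of smoke and 4 were that much higher in the 4-week control. Their sum was 2562 and 4748 in the controls and 2464 and 1913 under smoke. Of 5 smooth muscle markers 0 passed (3 unadjusted) and 3 were at least 1.5-fold lower after 4 weeks. Their sums were 41905 and 48755 in the controls and 40791 and 32938 under smoke. Most of each sum was Acta2, named after its value was seen. It had 31105 and 37089 in the controls and 31228 and 25630 under smoke. Of 4 fibroblast markers 0 passed (2 unadjusted). The sum of 6 endothelial markers was 309057 and 297626 in the controls and 271226 and 240039 under smoke. Of the 6, 1, the tight junction gene Cldn5, fell by 0.81 ± 0.102 (2 at an unadjusted p under 0.05). The sum of 5 cardiac muscle markers was 12043 and 16168 in the controls and 9929 and 8921 under smoke, and 0 of 5 passed limma (2 at an unadjusted p under 0.05). For the cell types in which Batf is known, the sum of 6 T cell markers was 978 and 1043 in the controls and 1226 and 1322 under smoke, and 0 of 6 passed limma, as did 0 of 5 B cell and 0 of 5 dendritic cell markers (2, 1 and 2 at an unadjusted p under 0.05). No marker is listed at 0 on these arrays. The part of these markers in the AP-1 values was not tested, and in whole lung fewer cells of a type and less RNA per cell cannot be told apart.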

How the data were processed

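RNA of 4 lung pools was measured on 4 arrays, with groups taken from the sample titles. The deposited values are RMA intensities, linear in scale, that the authors produced, per the submitters' processing notes, with version 1.4.1 of Affymetrix Expression Console; the sources used here give no genome build. Log2 was taken, symbols were updated through Entrez IDs with RefSeq GRCm38.p6 (22818 of 30604 features with 1 symbol matched), and the feature with the highest mean was kept per gene. Genes above the 40th percentile of mean log2 signal were kept. Smoke was tested with limma 3.58.1 in R 4.3.3 (lmFit, eBayes, terms for smoke and duration, 1 residual degree of freedom, two-sided, Benjamini-Hochberg over all genes kept); the step was tested on simulated data. Single pools were compared by fold of at least 1.5 without a p-value, since no group has a replicate. Replicates being absent, p-values measure only the spread between these arrays, which may be technical. The alternatives covered scaling, floor, base, features, genes fitted, covariates, moderation and each pool left out. All 9 members were named, as were, in each other list, the genes that passed (the 5 largest if more), and the 5 genes nearest to Fos; other names are marked as chosen after their values were seen or describe a role. Members and lists were chosen with earlier results of these data known. The table held 0 columns of other samples. Promoters came from RefSeq.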

Additional observations from a re-analysis of the deposited data

Results flagged for a closer look

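Fosl1 was the single measured member whose smoke difference had opposite signs at the 2 durations, -0.02 at 2 weeks and 0.05 at 4 weeks on the log2 scale. The difference between the durations was not tested, and all 4 values lay below the expression floor.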

How the results depend on the processing

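Of 7 tested members, 2 passed limma as planned, beside 265 of all 18084 genes. More or fewer of all genes passed under the alternatives too. The number of members was 5 after median centring on all features, beside 585 of all genes (there the moderation gave every gene the same SE of 0.155). It was 1 after cyclic loess, beside 72 of all genes. With a floor at the 60th percentile it was 4 of 6 members fitted, beside 379 of 12057 genes. The number was 5 with protein-coding genes only, where 882 of 12579 genes passed. It was 0 without the duration term, where 0 of all 18084 genes passed (6 members had an unadjusted p under 0.05, as had 6.43% of all genes). It was also 0 after median centring on the genes above the floor, where 8 of all genes passed (5 members unadjusted, 11.2% of all genes). That alternative was chosen after seeing the data. The number was 2 with no floor, base e, mean features, trend or robust moderation. Leaving out a pool left 1 pool in 1 arm, so only effects are given for those fits. Direction was kept by every tested member under all alternatives run. Base e aside, which only rescales the values, the effect of Fos ran from -2.82 to -2.11 and that of Jun from -1.06 to -0.68. With all 4 pools fitted, Fos passed except without the duration term and after median centring on the genes above the floor. Jun did not pass there either, nor after cyclic loess. Base e and mean features were no test of these calls, since base e only rescales and each measured member has 1 feature. Counts at 1.5-fold stayed within 1.5 times. Base e is left out of this, since its counts kept the log2 cut-off on natural logs, a larger fold than 1.5. The median difference at 2 and 4 weeks was -0.63 and -0.45 with no floor, where Fosl1 enters, -1.47 and -0.76 with the higher floor, where Batf drops out, and -0.56 and -0.41 with base e. The duration term already pairs 1 smoke and 1 control pool at each duration; the labels give no replicate numbers for any other block.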

Other observations

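Heat shock genes, which also respond to stress within minutes, had a negative median after 2 weeks of smoke and a positive one after 4 weeks. Of 5 tested, 0 passed limma (0 at an unadjusted p under 0.05). Hspa1a, the inducible chaperone HSP70, had a signal of 368 in the 2-week control, 95.2 in the 2-week smoke, 814 in the 4-week control and 884 in the 4-week smoke pool. It was lower after 2 weeks (-1.95) and not after 4 weeks (0.12), and the 4-week control exceeded the 2-week control (1.15), whereas Fos, Fosb and Atf3 were lower there. Hsph1, a co-chaperone, was at -0.93 and 0.28. The list's medians were -0.42 and 0.12, and 2 of 5 genes, Hspa1a and Hsph1, were at least 1.5-fold lower at 2 weeks. Among the AP-1 genes, Atf3 was likewise lower mainly at 2 weeks (-2.14 and -0.30), whereas Fos was lower at both durations (-2.81 and -2.12). Hspa1a and Hsph1 were picked after their values were seen, and the comparison with the AP-1 genes was not tested.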
